A study of Mus musculus with 6 samples.

Results

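The 10 genes described here encode transcription factors and coactivators of brown adipocytes: Ppargc1a, Ppargc1b, Prdm16, Ebf2, Pparg, Ppara, Esrra, Esrrg, Irf4 and Zfp516. They were chosen by name, and all 10 were found among the 35976 rows of the count table and among the 14542 genes that had enough counts to be tested. The libraries were made from the brown adipose tissue (BAT) of 3 WT and 3 sST2-KO animals, all male, 10 weeks old and of C57BL/6J background. The sST2-KO mice lack the intron of Il1rl1 that holds the stop codon of the soluble ST2 (sST2) transcript, a deletion present in every tissue. The sympathetic nerves of the BAT had been cut in both groups, and both groups were then exposed to 10 °C for 8 h, so neither intact nerves nor warm housing is represented. The comparison asks how the loss of sST2 changed gene expression in denervated BAT in the cold.

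Brown adipocytes burn fuel for heat through UCP1, and their identity rests on a small network of nuclear proteins. PPARγ, with EBF2 and PRDM16, opens and marks the enhancers of brown fat genes. PGC-1α and PGC-1β are coactivators that bind PPARs and the estrogen-related receptors and raise the genes of mitochondrial respiration and fatty acid oxidation, and Ppargc1a itself is induced through cAMP when BAT is stimulated. IRF4 and ZFP516 are cold- or fasting-responsive factors that act on Ucp1, IRF4 as a partner of PGC-1α.

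The counts summed to between 8159442 and 12874809 per library. Values are given as CPM after TMM scaling, and p-values are adjusted over all 14542 genes. The targeted gene Il1rl1 was counted 19, 19 and 6 times in the WT libraries and 55, 69 and 142 times in the sST2-KO libraries, and counts per gene cannot separate sST2 from the membrane receptor ST2L, so they do not check the genotype. Markers of brown adipocytes were present in every library, with a summed level of 7495 to 14681 CPM in WT and 239 to 1527 CPM in sST2-KO BAT. Markers of other tissues and cells also differed between libraries. The sum of 9 liver genes was 5563 CPM in WT replicate 2 and at most 50.2 CPM elsewhere. The sum of 10 skeletal muscle genes was 6.9 to 1322 CPM in WT, with the highest value in replicate 1, and 3667 to 15884 CPM in sST2-KO BAT. The sum of 8 macrophage genes was 503 to 729 CPM in WT and 1144 to 5252 CPM in sST2-KO BAT, with the highest value in replicate 3. In whole tissue, fewer cells of a type and less RNA per cell cannot be told apart.

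Of the 10 regulators, Ppargc1a, Esrra and Irf4, that is 3, passed an adjusted p of 0.05 as lower in sST2-KO BAT by edgeR's quasi-likelihood test, and each had fallen by more than 2-fold. None was higher. Over all genes tested, 9.1% passed this threshold as lower and 10.5% as higher, and with more than a 2-fold change 7.1% were lower and 9.04% higher. At an unadjusted p under 0.05, 5 regulators were lower and 0 were higher, beside 16.7% and 19.6% of all genes. DESeq2 called 4 lower and 0 higher, beside 10.9% and 12.2% of the genes to which it gave an adjusted p. The median log2 fold change of the 10 was -1.23, beside 0.034 for all genes tested. In 6 of the 10, every sST2-KO value lay below every WT value, which was the case for 19.7% of all genes tested, and in 0 of the 10 every sST2-KO value lay above, the case for 21.8% of genes. Without WT replicate 2, or without WT replicate 3, the number called was 1, which was Esrra. Calls fell among all genes too. Lower were 483 of 14846 genes tested without WT replicate 2 and 22 of 15085 without WT replicate 3, against 1323 of 14542 with all libraries.

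The start regions of the 3 genes called lower are shown so that their sequences can be read beside their values. Each window runs from 250 bases before to 50 bases after the annotated start, is given 5′ to 3′ on the strand of the gene, and is taken from RefSeq on GRCm38.p6; the positions are those of the only exact match on that chromosome of GRCm39, the build of the counts. Of the 10 genes, 7 were in the RefSeq table, without Ppargc1b, Ebf2 and Zfp516. The Ppargc1a window is chr5:51725018-51725317 on the minus strand, the Esrra window chr19:6899127-6899426 on the minus strand and the Irf4 window chr13:30932966-30933265 on the plus strand. Capitals mark matches to the motifs described after the sequences.
Ppargc1a: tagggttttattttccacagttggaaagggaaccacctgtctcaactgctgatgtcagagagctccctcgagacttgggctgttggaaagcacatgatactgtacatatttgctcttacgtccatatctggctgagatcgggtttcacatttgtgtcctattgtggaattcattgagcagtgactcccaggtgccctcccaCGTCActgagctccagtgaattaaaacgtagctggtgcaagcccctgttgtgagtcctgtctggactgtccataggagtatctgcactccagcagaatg
Esrra: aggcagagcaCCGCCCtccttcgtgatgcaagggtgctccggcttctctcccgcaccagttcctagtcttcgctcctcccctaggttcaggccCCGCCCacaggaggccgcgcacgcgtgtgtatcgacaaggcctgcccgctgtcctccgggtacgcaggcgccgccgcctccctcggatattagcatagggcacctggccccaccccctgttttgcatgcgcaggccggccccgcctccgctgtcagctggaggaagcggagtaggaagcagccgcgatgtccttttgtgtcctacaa
Irf4: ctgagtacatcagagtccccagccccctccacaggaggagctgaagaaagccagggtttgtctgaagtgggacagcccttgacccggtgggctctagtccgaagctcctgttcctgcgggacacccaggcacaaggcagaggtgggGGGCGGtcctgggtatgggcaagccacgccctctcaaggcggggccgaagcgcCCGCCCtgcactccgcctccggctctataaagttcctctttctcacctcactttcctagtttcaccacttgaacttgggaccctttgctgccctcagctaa

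The motifs were searched as exact letters on both strands. They were the cAMP response element TGACGTCA, its short form TGACG, the estrogen-related receptor element TCAAGGTCA, the nuclear receptor hexamer AGGTCA, the PPAR direct repeat, the EBF palindrome, the interferon-regulatory element and the GC box GGGCGG. The short cAMP element is contained in the full element, and the hexamer in both longer receptor elements. The Ppargc1a window held 1 match, the short cAMP element on the opposite strand (CGTCA) at position -49 from the start, and 20.8% of all 32851 windows of this length held that motif. The Esrra and Irf4 windows held 2 GC boxes each, a motif found in 35.7% of all windows. Regulators that were not called held these motifs too. The Ppara window held the short cAMP element at -222, and windows of Prdm16, Pparg, Ppara and Esrrg held GC boxes. The Ppargc1a window had 48.7% G and C and 5 CpG, against 66% and 25 CpG for Esrra and 61% and 11 CpG for Irf4. A match here describes letters and not binding.

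Of the PGC-1 coactivators, Ppargc1a fell in sST2-KO BAT and Ppargc1b did not pass the test. Ppargc1a, which encodes PGC-1α and lies on chromosome 5 of GRCm39 from 51611592 to 51725068, had 150, 252 and 171 CPM in WT replicates 1 to 3. It had 20.4, 59.2 and 45.1 CPM in sST2-KO replicates 1 to 3. The groups did not overlap, and the highest sST2-KO value lay far below the lowest WT value. The mean fell from 191 ± 53.6 to 41.6 ± 19.6 CPM (SD, n = 3 per group), or -2.20 ± 0.41 (SE) in log2 fold change, at an edgeR adjusted p of 0.0167. The adjusted p was 0.0502 without WT replicate 2 and 0.0653 without WT replicate 3. Skeletal muscle also uses Ppargc1a. All 10 muscle markers had a positive log2 fold change, with 0 of them called. Their summed level was 6.9 to 1322 CPM in WT and 3667 to 15884 CPM in sST2-KO BAT, without overlap. The part of muscle RNA in the Ppargc1a values was not tested. Ppargc1b, the related coactivator PGC-1β (chromosome 18, 61431195 to 61533735), had 125, 189 and 162 CPM in WT replicates and 22.7, 95.2 and 26.5 CPM in sST2-KO replicates. The groups again did not overlap, but sST2-KO replicate 2 stood 4.19 times above the lowest sST2-KO library. The change was -1.72 ± 0.55 (log2, SE) at an edgeR adjusted p of 0.0627. It passed the threshold with DESeq2 (adjusted p = 0.00685), without the filter on low counts (0.0403) and without sST2-KO replicate 2 (0.0190), where it was -2.71. The log2 ratio of Ppargc1a to Ppargc1b differed by -0.28 in sST2-KO from WT BAT, with overlap (exact permutation p = 0.6), so a different change of both genes was not shown, and the difference was 0.051 without sST2-KO replicate 2.

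**Figure D1:**
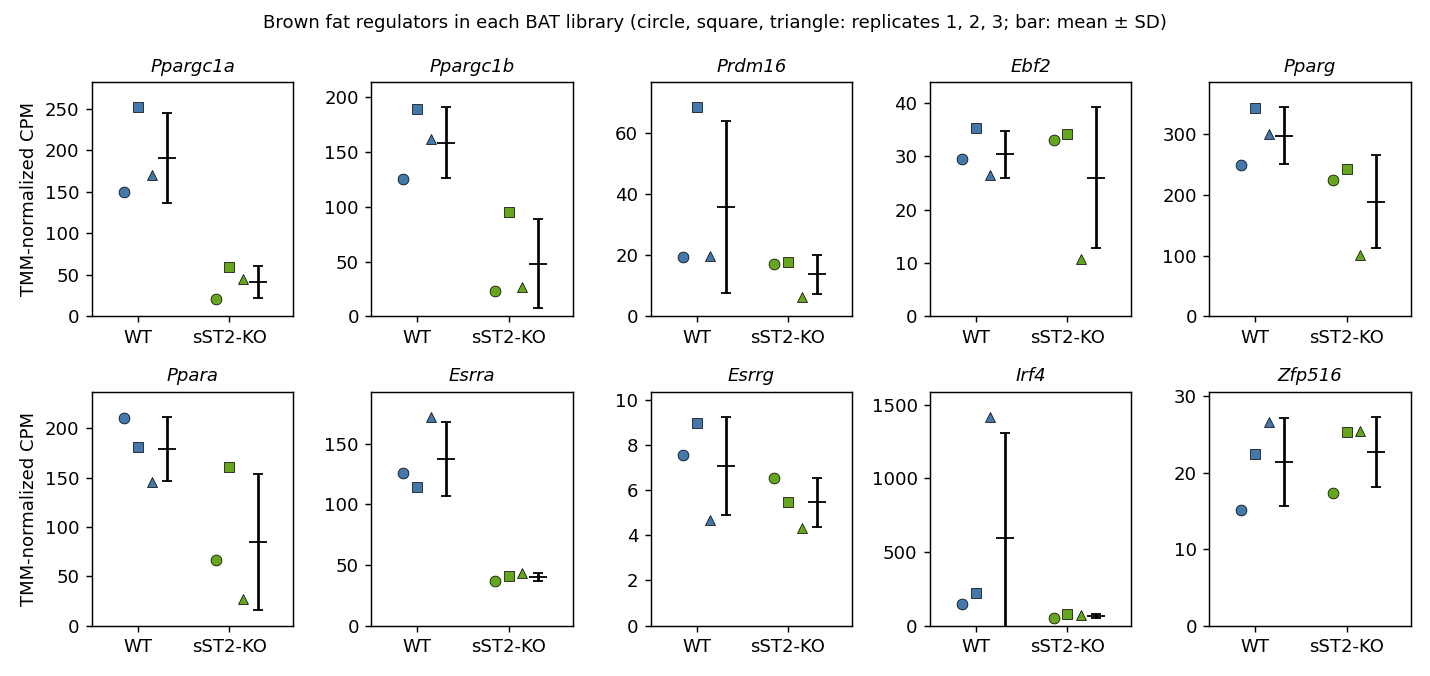
TMM-normalized CPM (linear axes from 0) of each regulator in the 3 WT and 3 sST2-KO libraries; the bars to the right of the points are the mean ± SD, and the lower arm for Irf4 in WT is cut at 0. Every sST2-KO value lies below every WT value for Ppargc1a, Ppargc1b, Prdm16, Pparg, Esrra and Irf4, the case for 19.7% of all genes tested. The WT mean of Irf4 is set by replicate 3 at 1418 CPM.

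The estrogen-related receptors, the orphan nuclear receptors through which PGC-1 coactivators act on mitochondrial genes, gave 1 call, Esrra. Esrra, which encodes ERRα (chromosome 19, 6888338 to 6899336), had 126, 114 and 172 CPM in WT replicates 1 to 3. In sST2-KO replicates it had 36.5, 40.5 and 43.0 CPM. The sST2-KO values were the most uniform of the 10 genes, with a coefficient of variation of 8.12%, and lay well below every WT value. The mean fell from 137 ± 30.8 to 40.0 ± 3.25 CPM (SD, n = 3 per group), or -1.78 ± 0.21 (SE) in log2 fold change, at an edgeR adjusted p of 0.0100. Esrra alone among the 10 stayed called whichever single library was removed, at an adjusted p of at most 0.0482. Its neighbor on the opposite strand, Trmt112, overlaps it and had a log2 fold change of 0.14 (adjusted p = 0.675). Esrrg, which encodes ERRγ (chromosome 1, 187340988 to 187947082), had the fewest counts of the 10, 38 to 95 per library. It had 7.56, 8.95 and 4.68 CPM in WT and 6.55, 5.46 and 4.34 CPM in sST2-KO replicates, and the groups overlapped (-0.37 ± 0.33 SE in log2, edgeR adjusted p of 0.453). The difference between both receptors was examined as the log2 ratio of Esrra to Esrrg CPM within each library, which depends little on library scaling. It was 3.97, 3.60 and 5.06 in WT and 2.39, 2.78 and 3.17 in sST2-KO replicates, a difference of -1.43 without overlap. The exact two-sided permutation test gave p = 0.1, the smallest value that 3 against 3 mice can give.

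Among the PPARs, the lipid-sensing nuclear receptors of adipocytes, no call was made. Pparg, the master regulator of fat cell formation (chromosome 6, 115337675 to 115468268), had 250, 343 and 300.0 CPM in WT and 224, 242 and 101 CPM in sST2-KO replicates. The groups lay side by side without overlap, with sST2-KO replicate 3 apart from the others, and the change was -0.66 ± 0.34 (log2, SE) at an edgeR adjusted p of 0.210. Ppara, which drives fatty acid oxidation genes (chromosome 15, 85618656 to 85687067), had 211, 181 and 146 CPM in WT and 66.1, 161 and 27.1 CPM in sST2-KO replicates. Here sST2-KO replicate 2 fell within the WT range while the other sST2-KO libraries lay below it. The change was -1.08 ± 0.56 (log2, SE) at an edgeR adjusted p of 0.208, and without sST2-KO replicate 2 it was -1.97 (adjusted p = 0.0336). Liver also uses Ppara, and WT replicate 2, with the liver transcripts, held the middle WT value; the part of liver RNA in the Ppara values was not tested. Cdpf1 overlaps Ppara on the opposite strand and had a log2 fold change of 0.36 (adjusted p = 0.477). The log2 ratio of Ppara to Pparg differed by -0.67 in sST2-KO from WT BAT, with overlap (exact permutation p = 0.3).

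The identity factors PRDM16 and EBF2 differed in their values. Prdm16, a coregulator that keeps brown adipocytes from other fates (chromosome 4, 154400581 to 154721625), had 19.3, 68.3 and 19.8 CPM in WT replicates. In sST2-KO replicates it had 17.2, 17.7 and 6.32 CPM. WT replicate 2 stood 3.54 times above the lowest WT library, and the remaining WT values were close to those of sST2-KO replicates 1 and 2. The change was -1.38 ± 0.59 (log2, SE) at an edgeR adjusted p of 0.137 and was -0.51 without WT replicate 2, the library with the liver transcripts, whose part in this value was not tested. Ebf2, which marks brown fat precursors and opens chromatin for PPARγ (chromosome 14, 67470736 to 67668394), had 29.4, 35.2 and 26.4 CPM in WT and 33.1, 34.1 and 10.8 CPM in sST2-KO replicates. Apart from sST2-KO replicate 3, the libraries of both groups shared a range, and the change was -0.22 ± 0.40 (log2, SE) at an edgeR adjusted p of 0.724, turning to 0.14 without that library and to 0.016 with scaling by total counts. The log2 ratio of Prdm16 to its relative Mecom differed by -1.87 in sST2-KO from WT BAT, without overlap (exact permutation p = 0.1), and by -1.23 without WT replicate 2, while Mecom itself had a log2 fold change of 0.65 (adjusted p = 0.114). That of Ebf2 to Ebf1 differed by 0.069 (exact permutation p = 0.8), with values from -0.19 to 0.42 when single libraries were removed.

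The Ucp1 activators IRF4 and ZFP516 gave the largest and the smallest difference of the 10. Irf4 (chromosome 13, 30933209 to 30950959), which encodes a factor of brown adipocytes and also of lymphocytes, dendritic cells and macrophages, had 147, 225 and 1418 CPM in WT replicates 1 to 3. It had 53.2, 78.6 and 72.0 CPM in sST2-KO replicates. The groups did not overlap, but WT replicate 3, with 11502 counts, stood 9.63 times above the lowest WT library. The change was -3.14 ± 0.84 (log2, SE) at an edgeR adjusted p of 0.0398 and -1.46 without WT replicate 3 (adjusted p = 0.0630). The adjusted p also lay above 0.05 without WT replicate 2 (0.0564) and in each fit that left out a single sST2-KO library (0.0860 to 0.0943). The summed level of brown adipocyte markers in WT replicate 3, 14681 CPM, was the highest of the WT libraries, beside 7495 and 9057 CPM. How this relates to its Irf4 value was not tested. Immune markers in WT replicate 3 were mixed. Its summed macrophage level, 503 CPM, was the lowest of the WT libraries, and its dendritic cell level, 60.0 CPM, lay between the others at 47.9 and 65.2 CPM. Its T cell level of 13.6 CPM, B cell level of 2.96 CPM and neutrophil level of 134 CPM were the highest of the WT libraries, where the next values were 13.4, 2.17 and 39.7 CPM. In sST2-KO BAT, where Irf4 was lower, all 8 macrophage and all 6 T cell markers had positive log2 fold changes, 3 and 5 of them called, and the summed T cell level was 104 to 130 CPM; their part in the Irf4 value was not tested. No annotated gene overlaps Irf4, whereas every other regulator has an annotated gene on the opposite strand. Zfp516 (chromosome 18, 82928715 to 83023590), a zinc finger factor that binds the Ucp1 promoter, had 15.2, 22.4 and 26.6 CPM in WT and 17.4, 25.3 and 25.5 CPM in sST2-KO replicates. Its groups overlapped almost fully, with a change of 0.083 ± 0.27 (log2, SE) at an edgeR adjusted p of 0.850 that was -0.12 without WT replicate 1, -0.020 without sST2-KO replicate 2 and -0.012 without sST2-KO replicate 3.

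**Figure D2:**
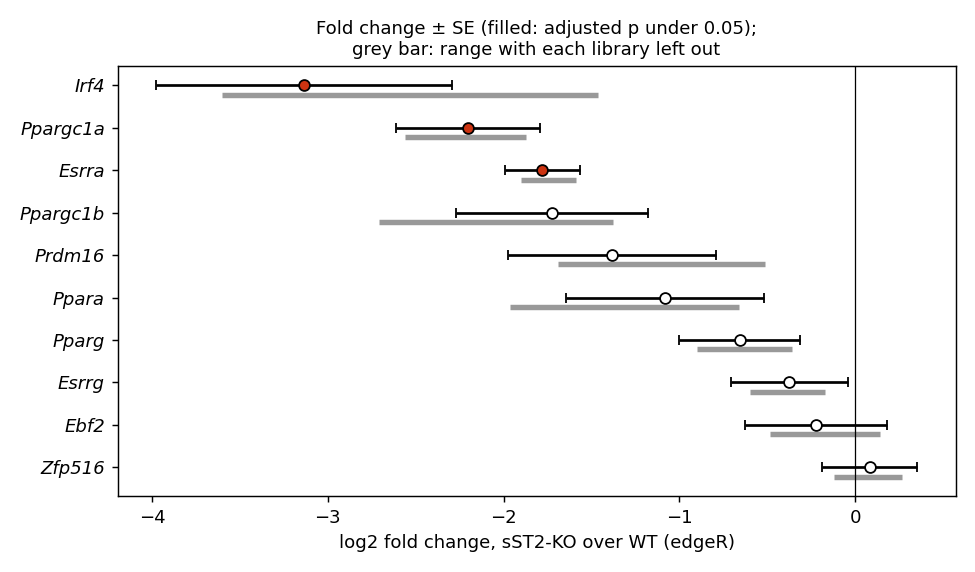
Log2 fold change of each regulator in sST2-KO over WT BAT by edgeR, with its standard error; red points have an adjusted p under 0.05, and the grey bar under each point spans the fold changes obtained when single libraries were removed. The bar of Esrra is short, while that of Irf4 reaches -1.46.

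The 10 genes did not vary in the same order within a group. In sST2-KO BAT, replicate 2 held the highest value of 7 regulators (Ppargc1a, Ppargc1b, Prdm16, Ebf2, Pparg, Ppara and Irf4) and also the highest summed level of brown adipocyte markers, 1527 CPM against 464 and 239 CPM. Replicate 3 held the lowest value of 5 (Prdm16, Ebf2, Pparg, Ppara and Esrrg), along with the lowest adipocyte marker sum and the highest macrophage, muscle and fibroblast sums. Replicate 1 held the lowest value of the other 5. In WT BAT, replicate 2 held the highest value of 6 regulators.

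Levels were compared between genes only per length of exon, as RPKM from TMM-scaled counts. In WT BAT, Irf4 led with a mean of 122 ± 145 RPKM (SD, n = 3), set by replicate 3, since its values were 30.0, 45.9 and 289 RPKM. Pparg followed at 42.7 ± 6.65 RPKM and did not differ from Irf4 beyond that spread. Esrra, Ppargc1b, Ppara and Ppargc1a formed a group between 27.0 and 27.5 RPKM, whose means differed by less than their SDs of 4.95 to 7.59. Ebf2 at 4.05 ± 0.601, Prdm16 at 3.73 ± 2.93, Zfp516 at 2.33 ± 0.629 and Esrrg at 1.14 ± 0.351 RPKM were lower, and of these neighbors Ebf2 and Prdm16, and Prdm16 and Zfp516, did not differ beyond their spread. In sST2-KO BAT, Pparg led with a mean of 27.1 RPKM and its lowest value, 14.5 RPKM, in replicate 3, followed by Irf4 at 13.8 ± 2.69 and Ppara at 12.9 ± 10.5 RPKM. Ppargc1a was in place 6 in both groups, at 27.0 ± 7.59 RPKM in WT and 5.89 ± 2.78 RPKM in sST2-KO BAT. With the longest transcript as the length, the WT group of 4 spread to means of 53.2 (Esrra), 50.5 (Ppara), 39.7 (Ppargc1b) and 27.9 (Ppargc1a) RPKM, and the mean of Irf4 in sST2-KO BAT moved from place 2 to place 4.

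**Figure D3:**
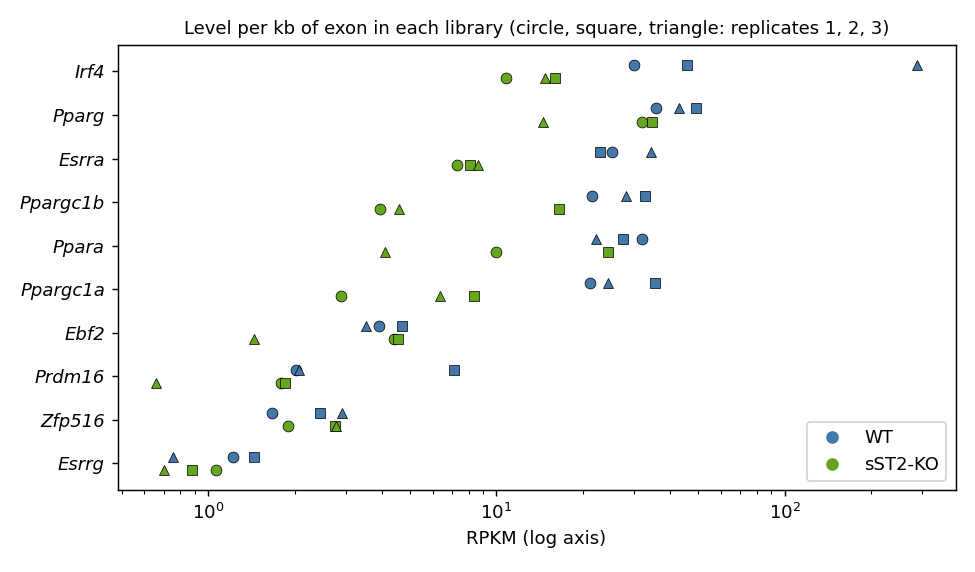
RPKM on a log axis of each regulator in every library, from TMM-scaled counts and the summed length of annotated exons. In every WT library 6 regulators were at 21.2 RPKM or above, and the highest mean was that of Irf4 in WT (122 RPKM) and that of Pparg in sST2-KO BAT (27.1 RPKM).

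Adipocyte marker levels themselves differed between the groups, so each regulator was also set against them. The mean log2 CPM of 6 adipocyte markers (Adipoq, Plin1, Plin4, Cidec, Lipe and Fabp4) was 10.50, 11.06 and 10.89 in WT and 10.03, 10.25 and 9.28 in sST2-KO replicates, a difference of -0.96 without overlap (exact permutation p = 0.1). Of the 6, 1 was called lower, Adipoq (-1.24, adjusted p = 0.0335), and several are targets of PPARγ, so the markers are not independent of the regulators. Relative to this mean, the difference of sST2-KO from WT was -1.31 for Ppargc1a and -1.04 for Ppargc1b on the log2 scale, and the groups of both lay apart (exact permutation p = 0.1 for each). The margin for Ppargc1b was narrow, with sST2-KO replicate 2 at -3.67 against the lowest WT value of -3.55. The difference was -0.78 for Esrra, but sST2-KO replicate 3 at -3.84 lay above WT replicate 2 at -4.22 (exact permutation p = 0.2). It was -1.46 for Irf4, with overlap (exact permutation p = 0.3). Prdm16 at -0.25 and Ppara at -0.45 had overlapping groups (exact permutation p = 0.9 and 0.4), and the value of Prdm16 was 0.22 without WT replicate 2. For Zfp516 it was 1.06 without overlap (exact permutation p = 0.1), and for Ebf2, Esrrg and Pparg 0.59, 0.65 and 0.22 with overlap (exact permutation p = 0.2 for each). Against Adipoq alone or Plin1 alone, 0 regulators had groups apart and lower. Apart and higher were Zfp516 (1.37 and 1.71) and Ebf2 (0.90 and 1.23) against both, Esrrg against Adipoq (0.96) and Pparg against Plin1 (0.87). The marker mean, Adipoq and Plin1 were each lower in sST2-KO BAT, which moves every difference upward. The share of all genes lying apart on these scales was not counted.

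**Figure D4:**
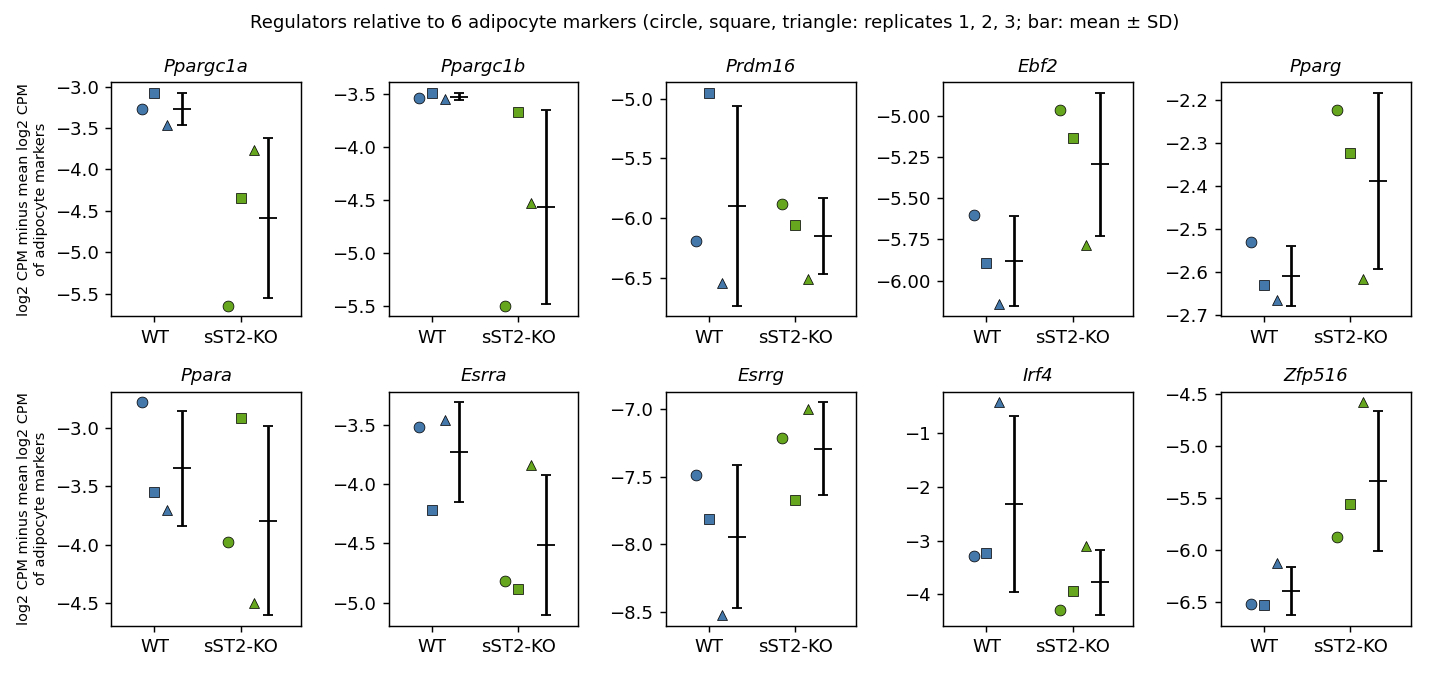
Log2 CPM of each regulator minus the mean log2 CPM of 6 adipocyte markers in each library, with the mean ± SD at the right of each group; the vertical axes differ between panels and do not start at 0. On this scale Ppargc1a and Ppargc1b are apart and lower in sST2-KO BAT, and Zfp516 is apart and higher. Against Adipoq alone or Plin1 alone, the groups of Ppargc1a and Ppargc1b overlap. The share of all genes apart on this scale was not counted.

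Of 15 family relatives, 13 were tested, 3 were called higher and 0 lower by edgeR, beside 10.5% and 9.1% of all genes, with 2 lower at an unadjusted p under 0.05 and 1 lower by DESeq2, and the median log2 fold change was 0.46. The 3 were interferon regulatory factors of leukocytes and other cells. Irf5, a factor of inflammatory macrophages, rose by 1.40 (adjusted p = 0.0348), Irf8, a factor of myeloid cells, by 1.23 (adjusted p = 0.0421) and Irf2 by 0.96 (adjusted p = 0.0277) on the log2 scale. The macrophage marker sum was higher in the same libraries, and their part in these values was not tested.

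The next 3 lists had counts near those shares of all genes, 9.1% lower and 10.5% higher. Of 15 partners and cofactors, 2 were called lower, Ncoa1 at -0.86 (adjusted p = 0.0326), a coactivator of nuclear receptors, and Rxrb at -0.67 (adjusted p = 0.0435), a heterodimer partner of PPARs. None was higher by edgeR or DESeq2, with 1 higher at an unadjusted p under 0.05, and the median was -0.13. Of 15 other regulators of brown fat, 1 was lower and 2 were higher, with a median of 0.049. Nfia, which works with PPARγ at brown fat enhancers, had a log2 fold change of -0.99 (adjusted p = 0.0287), Lhx8 of 1.85 (adjusted p = 0.0166) and Cebpd of 0.92 (adjusted p = 0.0474). Of 10 restraints on the brown program tested, 1 was called, Zfp521, which opposes EBF factors, higher by 2.02 on the log2 scale (adjusted p = 0.0318). None was lower by edgeR, with 1 lower at an unadjusted p under 0.05 and 1 lower by DESeq2.

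The remaining lists, written from general knowledge as genes on which the regulators act, held mostly lower calls. They were chosen with earlier results of these data known. Whether the regulators caused these changes was not tested. Of 8 mitochondrial biogenesis factors, 4 fell and 0 rose by edgeR or DESeq2 or at an unadjusted p under 0.05: Polrmt, the mitochondrial RNA polymerase (-1.57, adjusted p = 0.0154), Perm1, a target of PGC-1 and the estrogen-related receptors (-1.54, adjusted p = 0.0390), Tfb2m, a mitochondrial transcription factor (-1.15, adjusted p = 0.0203), and Gabpa (-0.98, adjusted p = 0.0186). Of 21 PPAR targets, 10 fell and the median change was -1.53, among them Ehhadh (-3.89, adjusted p = 0.0162), Gk (-3.26, adjusted p = 0.00912), Slc25a20 (-2.51, adjusted p = 0.00932) and Acaa2 (-2.49, adjusted p = 0.0241), which serve fatty acid oxidation or glycerol use. Of 15 targets of the estrogen-related receptors and PGC-1, 14 fell, with -1.91 as the median, and the exception was Sod2 (-0.42, adjusted p = 0.444). Idh3a (-2.62, adjusted p = 0.0154), an enzyme of the TCA cycle, had the largest value. Of 7 thermogenic targets, 6 fell, led by Elovl3 (-5.57, adjusted p = 0.00912), a fatty acid elongase, and Ucp1 (-4.04, adjusted p = 0.0226), and the exception was Adrb3 (-0.38, adjusted p = 0.629). In these last 3 lists 0 genes were higher by edgeR, by DESeq2 or at an unadjusted p under 0.05. The background of 9.1% lower applies to each of these counts, and no list was tested as a set. Fabp4, Plin1, Plin4 and Adipoq are in both the PPAR targets and the adipocyte markers. All 5 brown adipocyte markers summed above (Ucp1, Cidea, Cox7a1, Cox8b and Elovl3) are also thermogenic targets, so that sum and this list are not separate results.

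**Figure D5:**
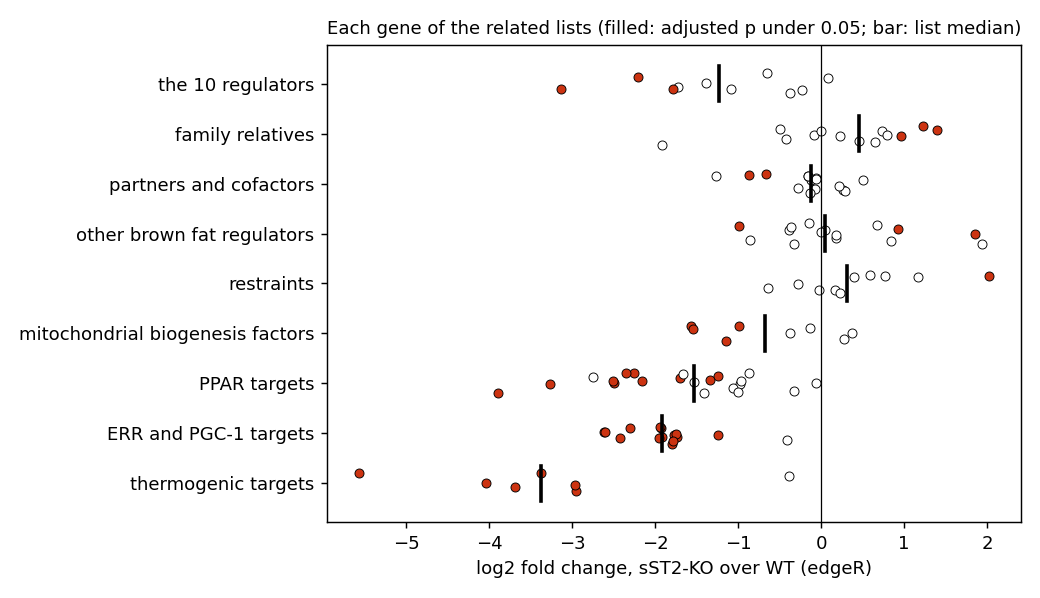
Log2 fold change in sST2-KO over WT BAT by edgeR of each tested gene in the lists; red points have an adjusted p under 0.05 and the vertical bars are list medians. The target lists lie to the left of 0 (medians -1.53, -1.91 and -3.37), while family relatives, partners and restraints spread around it.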

How the data were processed

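BAT of 3 WT and 3 sST2-KO mice was measured by poly-A-selected, paired-end RNA-seq. The authors aligned the reads to mm39 with HISAT2 and counted them per gene with htseq-count, and the deposited table holds these raw counts per gene symbol, without normalization. FastQC 0.12.1 and HISAT2 2.2.1 are named in the submitters' processing notes; the version of the counter and its strand setting are not given in the sources used here, so reads of genes that overlap on opposite strands cannot be told apart. The labels number the libraries without naming the animals. Each library was taken as a separate mouse because the paper gives 3 per group, and p-values measure the spread between these samples. Libraries were assigned by their titles, and 0 columns of per-sample values were unused.

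The test was edgeR 4.0.16 under R 4.3.3. After filterByExpr, libraries were scaled by TMM (factors 0.825 to 1.14) and sST2-KO was compared with WT by the quasi-likelihood test with no covariate; p-values of all 14542 genes were adjusted by Benjamini-Hochberg. Calls required an adjusted p below 0.05. The standard error is the fold change divided by the square root of F. Ratios and values relative to adipocyte markers used log2(CPM + 0.5) and exact two-sided permutation tests in SciPy 1.17.1, with 5 and 10 comparisons. Exon lengths and positions came from the GENCODE annotation of GRCm39. Within groups, chi-square over degrees of freedom was 38.7 to 116 for each pair of libraries, far from that of copies. Same-numbered libraries had correlations of deviations of -0.062, 0.218 and -0.316, so the numbers were not taken to pair mice. The steps were tested on simulated data for this comparison. There edgeR recovered 165 of 196 changed genes and called 14 unchanged genes among 14335 tested. Genes of all sizes of change were counted together. Recovery at the fold changes of the regulators that were not called was not tested. The 10 genes and all lists were chosen with earlier results of these data known, and the lists were written from general knowledge. All 10 regulators were named, with up to 4 genes of each other list, those called with the largest change first, and Il1rl1. Mecom and Ebf1 are named for their ratios, and Sod2, Adrb3, Trmt112 and Cdpf1 were chosen after their values or positions were seen. Some list genes are not reported here by name. For each regulator, the 2 genes with the most similar profile were sought where mean log2 CPM was 2 or more. The alternatives comprised a replicate block, DESeq2 1.42.0, scaling by total counts or RLE, a minimum of 10 counts in all samples or no minimum, other pseudocounts, reference genes and gene lengths, and removal of each library. Plots used matplotlib 3.10.9 (Python 3.11.15).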

Additional observations from a re-analysis of the deposited data

How the results depend on the processing

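The 3 regulators called lower remained 3 or 4 with DESeq2, RLE factors, total counts, no filter and at least 10 counts in every sample, and 0 were higher in any setting. Of the 12609 to 24599 genes given an adjusted p in the settings named, 891 to 1846 were called lower and 1270 to 2181 higher. With a library left out the number of regulators called lower, also past 2-fold, ranged from 1 to 4. Over all genes these fits called from 22 of 15085 (without WT replicate 3) to 1189 of 14797 (without WT replicate 1) lower. Past 2-fold they called 22 to 998 lower. With WT replicate 2 and sST2-KO replicate 3 both left out, an alternative chosen after the data were seen, 462 of 14642 genes were called lower. The number of regulators called lower was then 1, which was Esrra at -1.96 (adjusted p = 0.0233). Under the replicate block it was 0, with log2 fold changes of -2.29 for Ppargc1a, -1.76 for Esrra and -2.37 for Irf4 and adjusted p values of 0.0644, 0.0644 and 0.0963; 0 genes of all 14542 passed and 4623 had an unadjusted p under 0.05. The block leaves fewer residual degrees of freedom, and the labels do not say whether the numbers pair mice. Total counts moved the median log2 fold change of all genes from 0.034 to 0.29. Ebf2 turned to 0.016 with total counts, spanned -0.49 to 0.14 when single libraries were removed, with 0.14 without sST2-KO replicate 3, and 0.26 without that library and WT replicate 2. Zfp516 turned to -0.12, -0.020 and -0.012 without WT replicate 1, sST2-KO replicate 2 or sST2-KO replicate 3, within a span of -0.12 to 0.26. The cause was not tested. Relative to adipocyte markers, the number of regulators apart and lower was 2, fell to 0 with Adipoq alone or Plin1 alone, and was 2 to 4 when single libraries were removed. The share of all genes apart on this scale was not counted. Prdm16 turned to 0.054 against Adipoq and 0.39 against Plin1, and Ppara to 0.20 against Plin1. Without WT replicate 2 Prdm16 turned to 0.22. The 5 ratios kept their direction with other pseudocounts, and the block cannot change their mean difference. With single libraries removed, Ppargc1a to Ppargc1b spanned -0.67 to 0.051 and Ebf2 to Ebf1 -0.19 to 0.42, so neither kept its direction, while Prdm16 to Mecom spanned -2.36 to -1.23. The depth limits Esrrg, with 38 to 95 counts per library.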

Other observations

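For each regulator the 2 genes with the most similar profile were found among 11950 genes, by the root mean square difference of centered log2 CPM over the 6 libraries, as a description with no test. The most similar to Ppargc1b were Cpt1b (0.173), the carnitine palmitoyltransferase of muscle and brown fat, and Gpt (0.297). Those of Ppargc1a were Ces1f (0.255) and Acsl1 (0.302), an acyl-CoA synthetase. Esrra lay close to Coq10a (0.111) and Fcgrt (0.125), Ppara to Ccdc3 (0.179) and Cntnap1 (0.284), and Pparg to Zbtb49 (0.096) and Rcbtb2 (0.107). Ebf2 lay close to C1qtnf9 (0.086) and Mpp2 (0.104), Esrrg to Pde2a (0.13) and Tcf7l1 (0.134), Zfp516 to Zfat (0.094) and Asap1 (0.095), and Prdm16 to Adck3 (0.275) and Palmd (0.341).

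The profile of Irf4 had no gene as near. The most similar was 4833411C07Rik at 0.435, with 2.52, 3.86 and 16.3 CPM in WT and 0.836, 0.593 and 0.296 CPM in sST2-KO replicates, so it shared the high value of WT replicate 3. Next was a row named 1-Mar.1 at 0.505, with 6.16, 21.3 and 50.7 CPM in WT and 2.72, 2.37 and 2.37 CPM in sST2-KO replicates. Its symbol has the form of a date, so its gene was not identified. Among the regulators themselves, Ebf2 and Pparg were the nearest pair (0.256), followed by Ebf2 and Esrrg (0.431), Pparg and Esrrg (0.443) and Ppargc1a and Ppargc1b (0.453).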
